A study of Mus musculus with 9 samples.

Results

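The NF-kappaB inflammatory genes are 36 named mouse genes, of which 34 were found among the 18193 genes that the array's probe sets name; Nfkb1 and Ripk2 are not analysed here. They were read in cultured mouse granulosa cells on 9 Affymetrix mouse arrays, with 3 arrays for each of 3 adenoviruses. The list was written after values of these same arrays had been seen, and it was chosen because the arrays titled replicate 3 differed from the others in such genes. Each gene was read from the probe set with the highest mean over all 9 arrays. The members' own values are therefore a description. Their counts and errors in the fit across all probe sets are given beside the counts for all probe sets, and nothing is read from them.

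NF-kappaB is a family of transcription factors held in the cytoplasm by IkappaB proteins. Signals from cytokine or Toll-like receptors activate the IkappaB kinase complex, which marks IkappaB for destruction and lets NF-kappaB enter the nucleus. It then switches on chemokines, cytokines and adhesion molecules, together with its own inhibitors, which end the response. In the ovary, inflammatory signalling of this kind is known above all around ovulation, when granulosa cells and leukocytes of the follicle take part.

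The granulosa cells, which surround the oocyte, came from mice 20 to 26 days old whose genotypes the labels call various, taken 48 h after equine chorionic gonadotropin (eCG), a hormone that makes follicles grow. They attached overnight in medium with 1% fetal bovine serum and were then infected for 24 h in serum-free medium with an adenovirus expressing eGFP (the control group, labelled GFP), Cre recombinase or WNT4, a secreted signalling protein. The design text gives a multiplicity of infection of about 50 and an infection efficiency above 80%, and states that the Cre virus recombined floxed Ctnnb1, the beta-catenin gene; which animals carried the floxed allele is not given for any array. All 3 groups therefore share the eCG treatment, the culture and an adenovirus infection, and no uninfected cells are in the series. The comparisons ask what expressing Cre or WNT4 changed relative to eGFP. The replicates are called biological, but nothing says that they came from separate animals or cultures, so the p-values measure only the spread between these samples.

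Expression is given as the deposited RMA values on the log2 scale, which ran from 3.46 to 15.3, with array medians from 5.44 to 5.54. Differences are given on that log2 scale, and a probe set's level is not compared with that of another probe set. In bulk RNA, fewer cells of a type and less RNA per cell cannot be told apart. The cells carried granulosa markers: 15 of 16 had a mean of at least 6, among them Inha, the inhibin alpha subunit, at 12.87 to 13.96, and Foxl2, a granulosa transcription factor, at 10.09 to 10.70. Over all probe sets, 18658 of 45037 reached that mean. So did 8 of 10 oocyte, 8 of 12 theca and stroma and 9 of 19 leukocyte markers. Fewer did among endothelial (3 of 9), surface epithelium (2 of 8) and neutrophil markers (1 of 9). The count alone does not show that the cultures held only granulosa cells. The transgenes did not settle the labels. One Wnt4 probe set (mean 9.08) read 9.13, 7.57 and 8.27 on the GFP arrays, 10.01, 9.81 and 9.05 on the Cre arrays and 9.91, 9.62 and 8.36 on the WNT4 arrays. The brighter one (mean 9.79) went against the WNT4 label, at 9.93, 9.16 and 9.13 on the GFP arrays, 11.25, 10.47 and 10.18 on the Cre arrays and 8.97, 9.89 and 9.16 on the WNT4 arrays, which all lay below the Cre arrays and differed from GFP by -0.07 ± 0.34 (SE, 3 arrays a group). The 3 Ctnnb1 probe sets had Cre means 0.04 to 0.20 above the GFP means. Where these probe sets lie relative to the virus insert or the deleted exons is not known here, so the groups are called by their labels, and every direction below is between arrays labelled GFP, Cre and WNT4. Several arrays stood apart from the rest of their group. The share of all 45037 probe sets lying at least 1 above both other arrays of the group was 0.0888% for GFP 1, 0.0955% for GFP 2, 0.149% for GFP 3, 0.169% for Cre 1, 0.164% for Cre 2, 0.824% for Cre 3, 0.859% for WNT4 1, 0.0622% for WNT4 2 and 1.04% for WNT4 3. A probe set that passes this mark is called lifted on that array below.

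Promoter sequences bear on these genes because NF-kappaB binds a short DNA motif near many of them. RefSeq promoter sequences (build GRCm38.p6, 250 bases before to 50 after the start of each gene) were at hand for 23 of the 36 named members. The NF-kappaB consensus was searched by exact match on both strands. Matches on opposite strands at the same position were counted once, and overlapping matches that began at different bases were counted separately. It matched in 10 of the 23 members (43.5%), against 1388 of 27025 genes (5.14%) and 1480 of 32851 promoter sequences (4.51%). At least 2 matches stood in 4 of the 23 members (17.4%), against 174 of 27025 genes (0.644%). Cxcl1 and Cxcl2 were among these 4 only through overlapping matches in a single stretch. Stretches of 6 promoters are shown 5′ to 3′ on the gene's strand, ending at or before the start site, with the matches in capitals. Cxcl1, Cxcl2, Nfkbia and Tnfaip3 are shown as members lifted on both Cre 3 and WNT4 3 with a match, Il6 as a member with a match that was lifted on no array, and Saa3 as a member lifted on Cre 3 and WNT4 3 without one.
Cxcl1 chr5:90891144-90891214 (plus strand): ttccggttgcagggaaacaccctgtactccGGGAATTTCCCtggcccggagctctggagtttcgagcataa
Cxcl2 chr5:90903772-90903842 (plus strand): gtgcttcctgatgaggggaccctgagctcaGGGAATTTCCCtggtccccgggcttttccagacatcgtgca
Nfkbia chr12:55492648-55492706 (minus strand): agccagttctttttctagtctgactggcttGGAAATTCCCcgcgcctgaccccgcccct
Tnfaip3 chr10:19015411-19015565 (minus strand): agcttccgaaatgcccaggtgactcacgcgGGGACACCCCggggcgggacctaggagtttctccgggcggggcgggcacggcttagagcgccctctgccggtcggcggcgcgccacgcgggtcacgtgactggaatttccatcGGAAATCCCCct
Il6 chr5:30013040-30013109 (plus strand): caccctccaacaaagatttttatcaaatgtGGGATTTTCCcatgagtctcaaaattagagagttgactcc
Saa3 chr7:46715677-46715776 (minus strand): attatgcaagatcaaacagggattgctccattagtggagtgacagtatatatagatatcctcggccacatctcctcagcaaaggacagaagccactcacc
The matches began at base -71 from the start of Cxcl1, -97 of Cxcl2, -29 of Nfkbia, -125 and -12 of Tnfaip3 and -44 of Il6; in Cxcl1 and Cxcl2 the matches on the plus and minus strands overlap. A different listed start of Tnfaip3 held no match in the window. The other members with a match were Ccl20, Nfkb2, Bcl3, Csf1 and Sod2. Of the members with a promoter sequence, 4 of the 7 lifted on Cre 3 held a match and 6 of the 16 not lifted did; the counts were equal for WNT4 3. The members were listed as NF-kappaB genes, so a share of matches above that of all genes may follow from the choice of list. Nothing about these arrays is read from it. A match describes the letters of the promoter and is not evidence of binding, and the absence of one says only that these letters are not in this window.

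Across the 34 members, the arrays numbered 3 carried the high values. On GFP 3, 5 members were lifted (Cxcl1, Cxcl2, Cxcl5, Relb and Tnfaip3). On Cre 3, 11 were lifted, adding Cxcl16, Ccl3, Nfkbia, Icam1, Vcam1 and Saa3 to those 5. On WNT4 3, 9 were lifted, the same as on Cre 3 without Cxcl16 and Vcam1. On each of the 6 arrays numbered 1 or 2, 0 members were lifted. The list was chosen on these arrays, so nothing is read from the gap to the shares of all probe sets given above. The median over members of array 3 minus the mean of arrays 1 and 2 was 0.03 in GFP, 0.56 in Cre and 0.69 in WNT4. Array 3 lay above both other arrays of its group in 15 of the 34 members in GFP, 25 in Cre and 29 in WNT4. Of the 34 members, 17 ranged by less than 1 over all 9 arrays (0.32 to 0.95), and 17 had a mean under 6 (4.46 to 5.96), near or below the array medians.

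**Figure D1:**
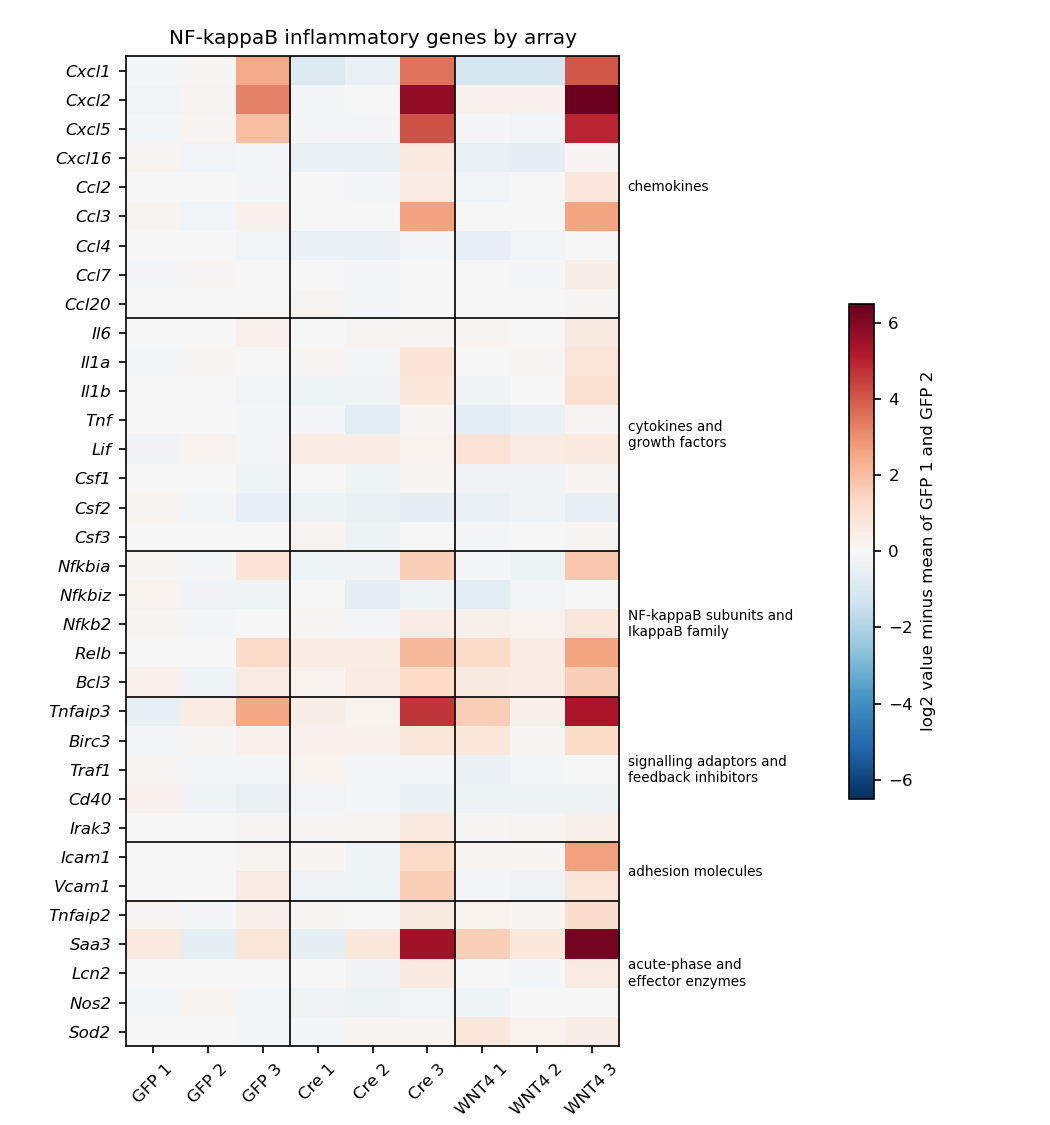
Each of the 34 genes (vertical axis, grouped by role) on each of the 9 arrays (horizontal axis), coloured by log2 value minus the mean of GFP 1 and GFP 2. The columns GFP 3, Cre 3 and WNT4 3 hold the strongest red, in Cxcl1, Cxcl2, Cxcl5 and Tnfaip3 on all 3 and in Saa3 on Cre 3 and WNT4 3.

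The chemokines, secreted proteins that draw leukocytes, held the largest gaps, and within them the neutrophil attractants Cxcl1, Cxcl2 and Cxcl5 differed most between arrays. Cxcl1 read 8.26, 8.37 and 10.77 on GFP 1 to 3, 7.45, 7.81 and 11.82 on Cre 1 to 3, and 7.18, 7.23 and 12.37 on WNT4 1 to 3. All 3 arrays numbered 3 lay above all 6 others, and among those 6 the GFP pair was the highest. Array 3 exceeded the mean of its group's other arrays by 2.45 in GFP (5.46-fold), 4.19 in Cre (18.2-fold) and 5.17 in WNT4 (36-fold). The remaining probe sets of Cxcl1 had the same order of the arrays numbered 3, at 10.25, 11.41 and 12.10 in one and 9.32, 10.29 and 10.68 in the other.

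Cxcl2 read 4.54, 4.88 and 7.92 on the GFP arrays, 4.59, 4.71 and 10.46 on the Cre arrays and 5.0, 5.0 and 11.06 on the WNT4 arrays. Its 6 values on arrays 1 and 2 spanned less than 1, and array 3 lay above them by 9.25-fold in GFP, 56-fold in Cre and 66.6-fold in WNT4, the widest gap of any member in each group by the probe sets used. Cxcl5, chosen for printing after its values were seen, read 4.46, 4.67 and 6.54 in GFP, 4.48, 4.43 and 8.69 in Cre and 4.45, 4.41 and 9.53 in WNT4. It repeated the order WNT4 3, Cre 3, GFP 3 and then the 6 other arrays.

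The remaining chemokines divided. Ccl3, a macrophage inflammatory protein, was printed after its values were seen and read 4.73, 4.41 and 4.83 in GFP, 4.52, 4.58 and 7.19 in Cre and 4.57, 4.54 and 7.14 in WNT4. It was thus far higher on Cre 3 and WNT4 3, while GFP 3 exceeded the mean of the other GFP arrays by 0.26. Ccl2, the main monocyte attractant, went from 6.07 and 6.13 to 6.71 on Cre 3 and from 5.98 and 6.17 to 6.92 on WNT4 3, and stayed at 6.09 on GFP 3. Cxcl16, a membrane-bound chemokine, was 1.05 higher on Cre 3 and 0.68 higher on WNT4 3 than on the other arrays of the group, and differed by -0.11 on GFP 3. Ccl4, Ccl7 and Ccl20 had ranges over the 9 arrays from 0.32 to 0.58, with Ccl20 the flattest member although its promoter held a match.

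**Figure D2:**
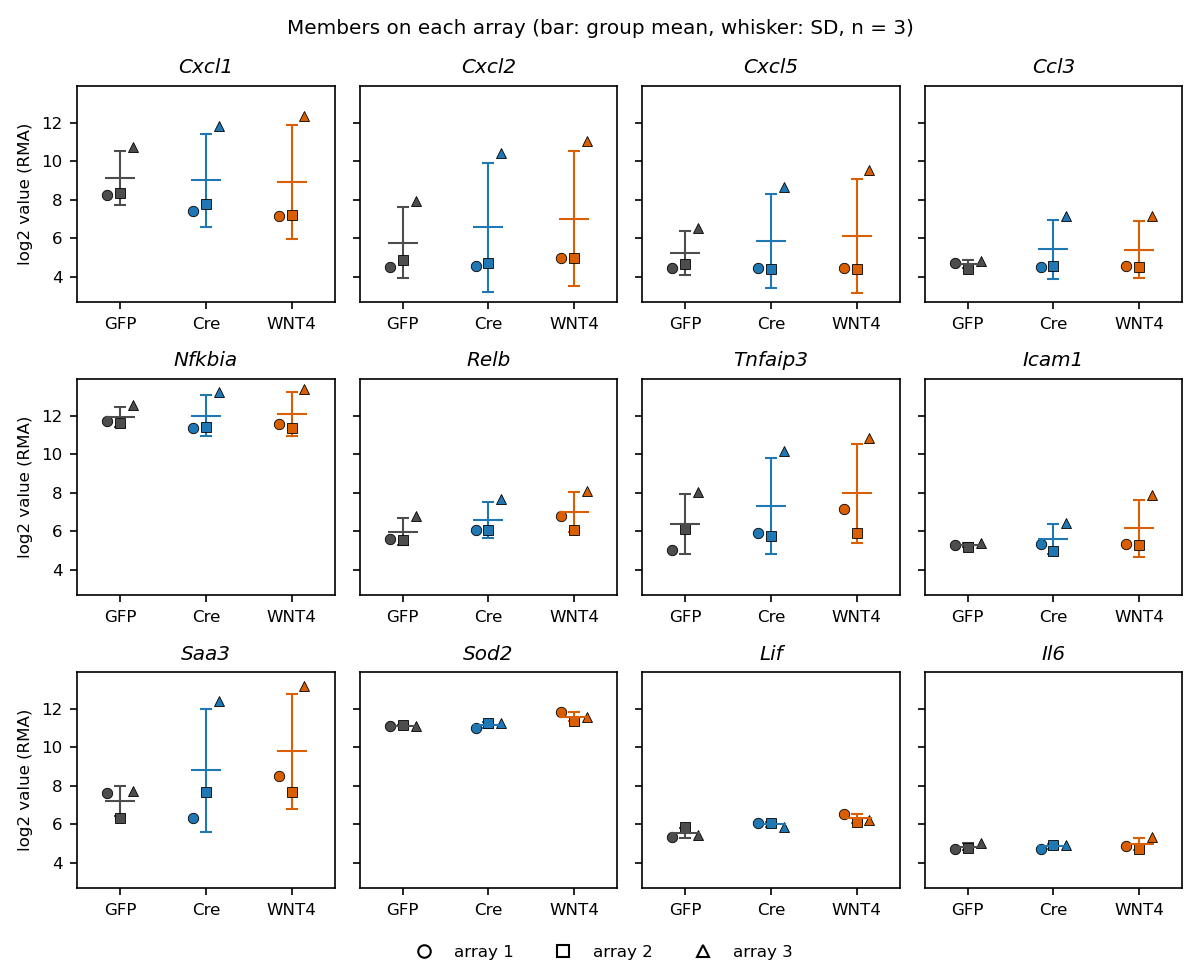
Log2 values (vertical axis) of 12 members in the GFP, Cre and WNT4 groups (horizontal axis), with a circle, square and triangle for arrays 1, 2 and 3, a bar for the group mean and a whisker for the SD (n = 3). In Cxcl1, Cxcl2, Cxcl5, Nfkbia, Relb and Tnfaip3 the triangle is the highest point of every group, in Ccl3, Icam1 and Saa3 it stands far off in Cre and WNT4, and in Sod2, Lif and Il6 the points of a group lie close together.

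The cytokines and growth factors, the secreted signals of the response, stayed low or flat, and 0 of 8 were lifted on any array. Il6, a broad inflammatory cytokine, ranged from 4.71 to 5.33, with its highest value on WNT4 3. Il1b, which activates NF-kappaB through the interleukin-1 receptor, read 5.08 and 5.14 on Cre 1 and 2 and 6.07 on Cre 3, and 5.13 and 5.34 on WNT4 1 and 2 and 6.33 on WNT4 3; its highest GFP value was 5.39. Il1a, its close relative, was likewise highest on Cre 3 (5.29) and WNT4 3 (5.21), against 4.34 to 4.54 on the other 7 arrays. Tnf, a strong activator of the pathway, ranged by 0.88, from 6.01 on Cre 2 to 6.89 on WNT4 3.

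Lif, a cytokine of the interleukin-6 family, was one of the members whose arrays numbered 3 were not the high ones. It read 5.36, 5.86 and 5.46 in GFP, 6.07, 6.07 and 5.85 in Cre and 6.56, 6.15 and 6.22 in WNT4, and was printed after its values were seen. All WNT4 arrays lay above all GFP and all Cre arrays, while Cre 3 (5.85) lay just below GFP 2 (5.86). The colony-stimulating factors Csf1, Csf2 and Csf3, which drive myeloid cell growth, had ranges of 0.44, 0.73 and 0.51. Csf1 depended on the probe set: a dimmer one (mean 6.94) ranged by 2.0, from 6.10 on WNT4 2 to 8.10 on WNT4 3, and read 7.45 on Cre 3.

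Among the NF-kappaB subunits and IkappaB proteins, Nfkbia showed the arrays numbered 3 most fully. Nfkbia encodes IkappaB alpha, the inhibitor that NF-kappaB itself induces, and it read 11.72, 11.61 and 12.55 in GFP, 11.37, 11.44 and 13.23 in Cre and 11.56, 11.35 and 13.41 in WNT4. Every array numbered 3 lay above the other 6. The gap was 0.88, 1.83 and 1.95 in GFP, Cre and WNT4, on a level near the top of the array's scale. In 3 of the 4 dimmer probe sets of Nfkbia, array 3 was lifted in all 3 groups; the dimmest (mean 6.38) ranged by 1.04, with GFP 3 at 6.44 below GFP 1 at 6.47.

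Relb, the subunit of the slower, non-canonical arm, read 5.61, 5.53 and 6.80 in GFP, 6.07, 6.07 and 7.69 in Cre and 6.82, 6.09 and 8.12 in WNT4. Array 3 was the highest in each group, but WNT4 1 at 6.82 stood level with GFP 3. Nfkb2, whose product partners Relb, read 7.88, 7.77 and 7.81 in GFP, 7.89, 7.70 and 8.31 in Cre and 8.17, 8.06 and 8.55 in WNT4. Here GFP 3 lay between the other GFP arrays, and all WNT4 arrays lay above all GFP arrays. The dimmer Nfkb2 probe set (mean 6.78) differed in both respects, at 6.70, 6.53 and 6.96 in GFP, 6.59, 6.76 and 7.33 in Cre and 6.62, 6.55 and 6.94 in WNT4. Bcl3, an IkappaB-like protein that works in the nucleus, was highest on WNT4 3 (6.36) and Cre 3 (6.11), with GFP 3 at 5.35 level with Cre 2 and WNT4 2.

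Nfkbiz, a nuclear IkappaB protein induced by Toll-like and interleukin-1 signals, gave opposite pictures by probe set. The one with the highest mean (6.23), by which it counts as a member here, ranged from 5.72 to 6.72 and was highest on GFP 1. The next (mean 5.93) read 4.65, 4.91 and 6.0 in GFP, 5.07, 5.36 and 8.03 in Cre and 5.55, 4.92 and 8.89 in WNT4, with array 3 lifted in every group. Counting a member as lifted where any of its probe sets was, a count added after the values were seen, gave 8 members on GFP 3, 13 on Cre 3 and 13 on WNT4 3, and 0 on each array numbered 1 or 2.

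The signalling adaptors and feedback inhibitors moved through 1 gene. Tnfaip3 encodes A20, the ubiquitin-editing enzyme that shuts the pathway off, and read 5.02, 6.10 and 8.07 in GFP, 5.94, 5.78 and 10.19 in Cre and 7.16, 5.90 and 10.87 in WNT4. Array 3 was highest in each group and above all 6 arrays numbered 1 or 2, of which WNT4 1 was the highest. The gap of array 3 was 5.68-fold in GFP, 20.2-fold in Cre and 20.3-fold in WNT4; a dimmer Tnfaip3 probe set (mean 5.23) stayed within 5.04 to 5.52. Birc3, the ubiquitin ligase cIAP2, read 8.15, 8.33 and 8.50 in GFP, 8.51, 8.51 and 8.97 in Cre and 9.0, 8.33 and 9.41 in WNT4, with array 3 highest in each group by less than 1. Traf1, Cd40 and Irak3 ranged by 0.60 to 0.75.

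Both adhesion molecules, which hold leukocytes to a cell surface, were high on Cre 3 and WNT4 3, and both were printed after their values were seen. Icam1 read 5.27, 5.17 and 5.40 in GFP, 5.35, 4.96 and 6.46 in Cre and 5.34, 5.29 and 7.88 in WNT4, so that Cre 3 and WNT4 3 stood above the other 7 arrays. Vcam1 read 6.34, 6.35 and 6.88 in GFP, 6.13, 6.08 and 7.87 in Cre and 6.29, 6.13 and 7.11 in WNT4 by its brightest probe set. A dimmer Vcam1 probe set (mean 6.29) showed a wider gap in all 3 groups, at 4.74, 4.55 and 7.79, then 4.67, 4.63 and 9.95, then 5.62, 4.76 and 9.86. By that probe set Cre 3 and WNT4 3 were nearly equal and GFP 3 lay between them and the rest. The dimmest (mean 5.79) showed the gap in Cre (2.39) and WNT4 (1.94) and not in GFP (0.03).

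Among acute-phase and effector genes, Saa3 had the widest range of all 34 members (6.88). Saa3 encodes serum amyloid A3, made at sites of inflammation outside the liver, and read 7.61, 6.31 and 7.74 in GFP, 6.33, 7.67 and 12.43 in Cre and 8.51, 7.66 and 13.20 in WNT4. GFP 3 lay among the arrays numbered 1 and 2, while Cre 3 and WNT4 3 stood 42.9-fold and 34.5-fold above the other arrays of their group. Sod2, the mitochondrial superoxide dismutase, read 11.14, 11.17 and 11.09 in GFP, 11.01, 11.26 and 11.26 in Cre and 11.84, 11.40 and 11.58 in WNT4. No array numbered 3 stood out in Sod2, and the WNT4 arrays lay above the other 6. Tnfaip2 was highest on WNT4 3 (8.17), Cre 3 (7.60) and GFP 3 (7.37) in that order. Lcn2, an iron-trapping protein of innate defence, reached 5.0 on Cre 3 and 4.89 on WNT4 3 against at most 4.39 elsewhere, and Nos2, the inducible nitric oxide synthase, ranged by 0.48.

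The size of the gap varied across members in much the same way in Cre and WNT4. Over the 34 members, array 3 minus the mean of arrays 1 and 2 correlated between Cre and WNT4 with Pearson's r = 0.98 and Spearman's rho = 0.93; these groups share no array. The same measure over all 45037 probe sets gave r = 0.77. For GFP against Cre it gave r = 0.87 and rho = 0.76 over members and r = 0.31 over all probe sets, and for GFP against WNT4 r = 0.89, rho = 0.76 and r = 0.35. These are descriptions across genes, which are not independent replicates, they rest on 1 array numbered 3 in each group, and the members were chosen on those arrays. The order WNT4 3, Cre 3, GFP 3, then all others held for 7 members (Cxcl1, Cxcl2, Cxcl5, Nfkbia, Tnfaip2, Tnfaip3 and Icam1) and for 631 of the 45037 probe sets.

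**Figure D3:**
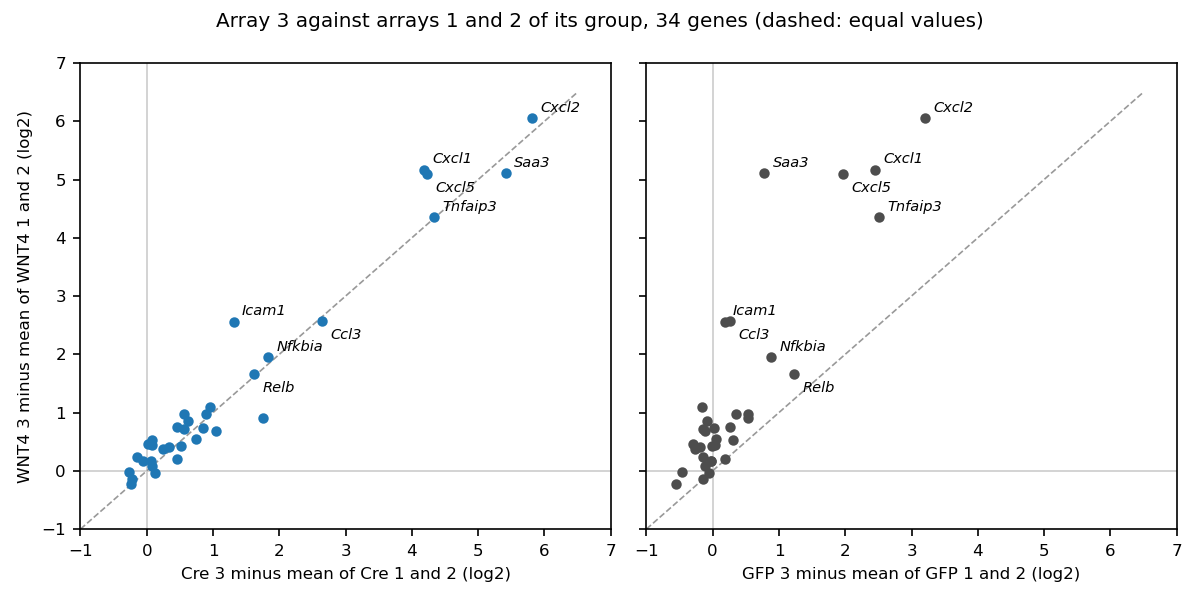
Each point is 1 of the 34 members, placed by array 3 minus the mean of arrays 1 and 2 (log2) in Cre (left, horizontal axis) or GFP (right, horizontal axis) and in WNT4 (vertical axis of both), with equality dashed. The Cre panel follows the dashed line, and in the GFP panel the far points lie above it, Saa3 (0.78 in GFP and 5.11 in WNT4) most of all.

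Seen from all probe sets, 23 of 45037 (0.0511%) were lifted on GFP 3, Cre 3 and WNT4 3 at once. Of these, 12 were probe sets of 8 members (Cxcl1, Cxcl2, Cxcl5, Nfkbia, Nfkbiz, Relb, Tnfaip3 and Vcam1), out of 61 member probe sets. A further 2 belonged to other genes listed as NF-kappaB targets, Cd44, a hyaluronan receptor, and Cd83, a marker of activated immune cells. Named genes outside both lists were Clec4d, Cybb, Mmp12, Glipr1, Gpr176, Ets1 and Nlrp10, and 2 probe sets were unnamed. The list was chosen on these arrays, so its share of the 23 is not read further. Named after their values were seen, Cybb, a subunit of the phagocyte NADPH oxidase, read 4.60, 4.31 and 5.68 in GFP, 4.61, 4.89 and 7.79 in Cre and 4.74, 4.89 and 8.01 in WNT4, and Mmp12, the macrophage elastase, 5.22, 5.09 and 7.01, then 5.07, 5.57 and 7.97, then 5.60, 5.23 and 7.69. Both had array 3 highest in each group, with Cre 3 and WNT4 3 above GFP 3.

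The groups were compared in the fit across all probe sets, with the members' counts as a description. In WNT4 against GFP, limma with Benjamini-Hochberg adjustment over all probe sets called 7 of 45037 (0.0155%), 6 higher and 1 lower, and 0 of the 34 members; at an unadjusted p under 0.05, 4 members were higher and 0 lower. The calls were 0 of 45037 (0%) and 0 of 34 members in Cre against GFP, with 1 member higher and 0 lower at an unadjusted p under 0.05. They were also 0 of 45037 (0%) and 0 of 34 in WNT4 against Cre, again with 1 member higher at the unadjusted threshold. Over all probe sets, 5870, 1006 and 2808 passed the unadjusted threshold in the 3 comparisons. Both comparisons with GFP share the GFP arrays.

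The largest differences had the largest errors, and in those members array 3 lay far from the rest of its group. Saa3 differed by 2.57 ± 1.73 (SE, 3 arrays a group) in WNT4 against GFP and by 1.59 ± 1.73 in Cre against GFP, with group means of 7.22 ± 0.79 (SD, n = 3) in GFP, 8.81 ± 3.20 in Cre and 9.79 ± 2.98 in WNT4. Cxcl1 had nearly equal means of 9.13 ± 1.42, 9.03 ± 2.42 and 8.93 ± 2.98, although its arrays numbered 3 differed between the groups. Tnfaip3 differed by 1.58 ± 1.53 and 0.91 ± 1.53, and Cxcl2 by 1.24 ± 2.02 and 0.80 ± 2.02. The members with small errors were others: in WNT4 against GFP, Lif differed by 0.75 ± 0.16, Sod2 by 0.47 ± 0.13, Nfkb2 by 0.44 ± 0.17 and Birc3 by 0.59 ± 0.26. Dimmer probe sets of these genes mostly did not show such differences: those of Lif (mean 5.33), Nfkb2 (mean 6.78) and Birc3 (mean 4.55) gave 0.03 ± 0.19, -0.03 ± 0.20 and -0.03 ± 0.14. For Sod2 the next brightest (mean 10.70) gave 0.45 ± 0.15, and the dimmer ones (means 8.37 and 5.53) gave 0.08 ± 0.14 and 0.10 ± 0.11. An exact permutation test of 1 gene over 3 arrays against 3 could not go below p = 0.1.

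The groups did not overlap in 3 members for WNT4 against GFP (Lif, Sod2 and Nfkb2, all higher in WNT4), against 14.8% of all probe sets. They did not overlap in 2 members for Cre against GFP (Birc3 higher and Nos2 lower in Cre), against 6.02%, and in 2 for WNT4 against Cre (Lif and Sod2 higher in WNT4), against 8.23%. These shares are close to or below the background, and nothing is read from them. The median difference over the members was 0.16 in WNT4 against GFP, 0.10 in Cre against GFP and 0.09 in WNT4 against Cre. All probe sets had medians of 0.00, -0.02 and 0.02. Many of those are dim. For the 17 members whose mean reached 6, the medians were 0.21, 0.09 and 0.09. The 18658 that were as bright in the whole series had 0.16, 0.03 and 0.12. Against this background the members' lead was narrower in both comparisons with GFP, and in WNT4 against Cre they lay below it. Centring each array on its 75th percentile moved the median of all probe sets in WNT4 against GFP to -0.15 and that of the members to 0.01. It turned the members' median in WNT4 against Cre to -0.01.

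Comparing arrays with the same replicate number set the arrays numbered 3 apart from the rest. The members' median for WNT4 minus GFP was -0.03 for number 1, -0.01 for number 2 and 0.62 for number 3, and for Cre minus GFP it was -0.03, -0.17 and 0.48. Cxcl1 changed sign with the number: WNT4 minus GFP was -1.08, -1.14 and 1.61, and Cre minus GFP was -0.81, -0.56 and 1.05. Icam1 was 0.08, 0.12 and 2.48 for WNT4 minus GFP, so that only number 3 showed a difference. In WNT4 minus GFP, Saa3 was 0.90, 1.35 and 5.45, positive at each number, and Relb 1.20, 0.56 and 1.31. For Cre minus GFP, Saa3 was -1.28, 1.36 and 4.68 and so changed sign, and Relb was 0.46, 0.54 and 0.89. Leaving out all 3 arrays numbered 3 gave 14 members higher and 20 lower in WNT4 against GFP (median -0.04, from -1.11 to 1.13). In Cre against GFP it gave 12 higher and 22 lower (median -0.07, from -0.68 to 0.50). In either comparison 0 of 34 members were called, as were 0 of all 45037 probe sets, so nothing is read from that count. Leaving out only Cre 3 and WNT4 3 gave medians of -0.06 and -0.10. No label ties arrays of one number to the same mouse, culture or date.

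**Figure D4:**
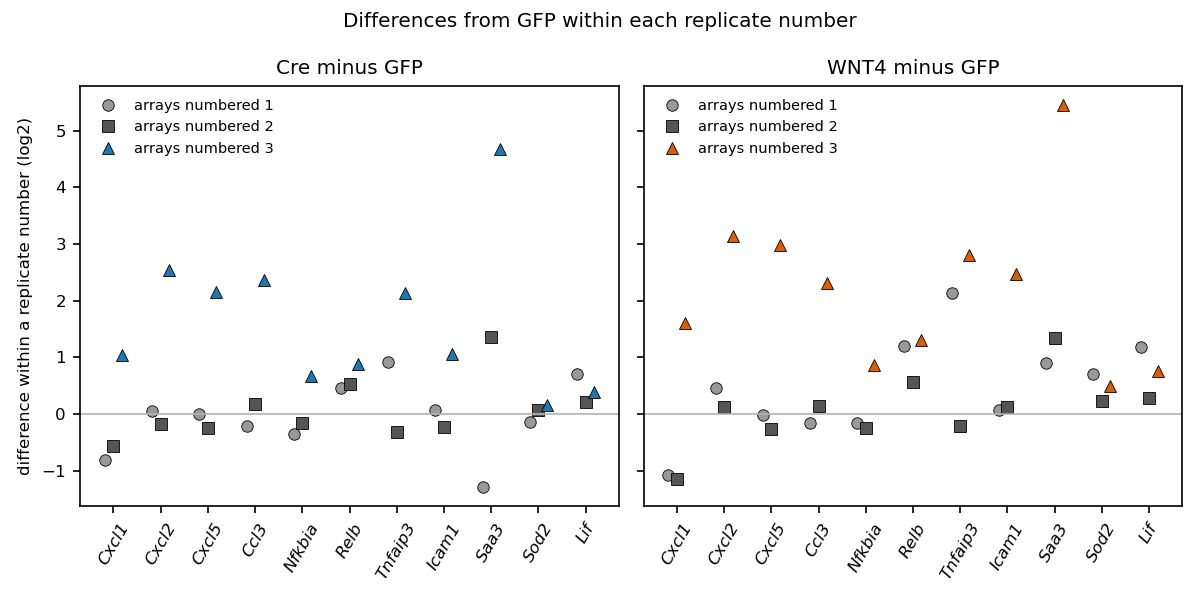
Cre minus GFP (left) and WNT4 minus GFP (right) on the log2 scale (vertical axis) for 11 members (horizontal axis), with a circle for arrays numbered 1, a square for 2 and a coloured triangle for 3. The triangles of Cxcl1, Cxcl2, Cxcl5, Ccl3, Nfkbia, Tnfaip3, Icam1 and Saa3 lie above their circles and squares in both panels, and those of Sod2 and Lif do not stand apart.

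Most of the listed genes upstream of the members were not lifted on the arrays numbered 3. Of 27 listed receptors and their adaptors, 25 were measured and 0 passed the test in either direction in WNT4 against GFP or Cre against GFP (unadjusted p under 0.05 for 4 higher and 2 lower, and for 1 higher and 0 lower). Over all 45037 probe sets, 5870 (4109 higher) passed this unadjusted threshold in WNT4 against GFP and 1006 (455 higher) in Cre against GFP. The list's medians were 0.09 and 0.05. By the lowest p in WNT4 against GFP, Tlr6 differed by 0.34 ± 0.11, Myd88, the adaptor of most Toll-like receptors, by 0.45 ± 0.15, Ly96, the partner of Tlr4 in sensing lipopolysaccharide, by 0.43 ± 0.14, the RNA sensor Ddx58 by 1.13 ± 0.44 and Tlr4 by -0.29 ± 0.12; the lowest limma adjusted p was 0.27. Ly96 differed by 0.48 ± 0.14 in Cre against GFP. Named after their values were seen, Tlr2 and Cd14, which sense bacterial lipids, were the list's 2 genes lifted on Cre 3 and on WNT4 3: Tlr2 went from at most 5.57 to 6.79 in Cre and from at most 5.66 to 7.45 in WNT4, and Cd14 from 6.05 to 8.03 and from 6.15 to 8.0. On GFP 3 they read 5.75 and 6.47, near GFP 2 at 5.71 and 6.44. Over all 45037 probe sets, 276 were lifted on both Cre 3 and WNT4 3.

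Of 37 listed kinases, ubiquitin ligases and remaining subunits, 33 were measured and 0 passed in either comparison with GFP (unadjusted p under 0.05 for 11 higher and 1 lower in WNT4 against GFP, and for 0 higher and 1 lower in Cre against GFP). The counts over all 45037 probe sets were 5870 (4109 higher) in WNT4 against GFP and 1006 (455 higher) in Cre against GFP. The medians were 0.22 and 0.08, and 27 of the 33 had a mean of at least 6. All probe sets with such a mean had medians of 0.16 and 0.03. Of those 18658, 3131 were higher at the unadjusted threshold in WNT4 against GFP. Rela, the main activating subunit, differed by 0.69 ± 0.19 in WNT4 against GFP and 0.34 ± 0.19 in Cre against GFP (limma adjusted p = 0.231 and 1). Nfkbib, the inhibitor IkappaB beta, differed by 0.32 ± 0.07 (limma adjusted p = 0.179), with all 3 WNT4 arrays between 8.58 and 8.63 and the other 6 between 8.28 and 8.35. Otud7b and Cyld, which remove ubiquitin chains, differed by 0.50 ± 0.15 and 0.65 ± 0.23, and Traf2, an adaptor of the signalling complexes, by 0.76 ± 0.27. Rel, a subunit typical of immune cells, was -0.45 ± 0.14 in Cre against GFP. On GFP 3 and Cre 3, 0 of the 33 were lifted, and on WNT4 3 the kinase Irak2 and Ikbkg, the regulatory subunit of the IkappaB kinase complex, were.

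Of 50 other listed target genes, 47 were measured and 0 passed in either comparison with GFP (unadjusted p under 0.05 for 4 higher and 2 lower in WNT4 against GFP, and for 1 higher and 0 lower in Cre against GFP). All 45037 probe sets gave 5870 (4109 higher) and 1006 (455 higher) at that threshold in these comparisons. Both medians were 0.03. Pim1, a survival kinase, differed by 0.94 ± 0.23 in WNT4 against GFP (limma adjusted p = 0.19), F3, which encodes tissue factor, by 1.39 ± 0.40, Gadd45b, a stress-response gene, by 1.08 ± 0.41, Plau by -0.41 ± 0.15 and Cfb by -0.30 ± 0.12. F3 differed by 0.93 ± 0.40 in Cre against GFP. On GFP 3, 2 of these targets were lifted (Cd44 and Cd83), and 7 were lifted on each of Cre 3 and WNT4 3. Cd83, named after its values were seen, read 5.23, 4.69 and 7.14 in GFP, 4.60, 5.01 and 8.86 in Cre and 5.14, 5.26 and 9.32 in WNT4. Ier3, an early stress gene named likewise, read 11.35, 11.37 and 11.68, then 11.74, 11.57 and 13.29, then 11.10, 11.40 and 13.56, so GFP 3 stood near its neighbours while Cre 3 and WNT4 3 did not.

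Other gene lists also differed between arrays, the hypoxia genes on Cre 3 and WNT4 3 and the interferon-response genes mainly on WNT4 1. The part of these lists in the members' values was not tested. A list of 27 measured hypoxia genes had medians above the GFP mean of 2.47 on Cre 3 and 2.82 on WNT4 3 and of 0.13 on GFP 3; 25, 24 and 0 of the 27 were lifted on these arrays. A list of 25 measured interferon-response genes had its highest median on WNT4 1 (2.16), with 0.79 on WNT4 3, 0.37 on Cre 3 and -0.03 on GFP 3. Of the 25, 14 were lifted on WNT4 1, 4 on Cre 3 and 0 on GFP 3 and WNT4 3. Picked with their values in view, Relb (6.82), Tnfaip3 (7.16) and Saa3 (8.51) on WNT4 1 were also above WNT4 2 (6.09, 5.90 and 7.66). Cxcl1 (7.18 against 7.23), Ccl2 (5.98 against 6.17), Tnf (6.05 against 6.31) and Nfkbiz (5.72 against 6.27) were lower on WNT4 1. The members' median minus the GFP mean was -0.06 on WNT4 1 and -0.05 on WNT4 2. The Gapdh control probe sets for the 3′ end exceeded those for the 5′ end by 0.95 on Cre 3 and 1.36 on WNT4 3 and by 1.77 to 2.17 on the other 7 arrays; for beta-actin the difference was 0.98 to 1.38 on all 9.

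**Figure D5:**
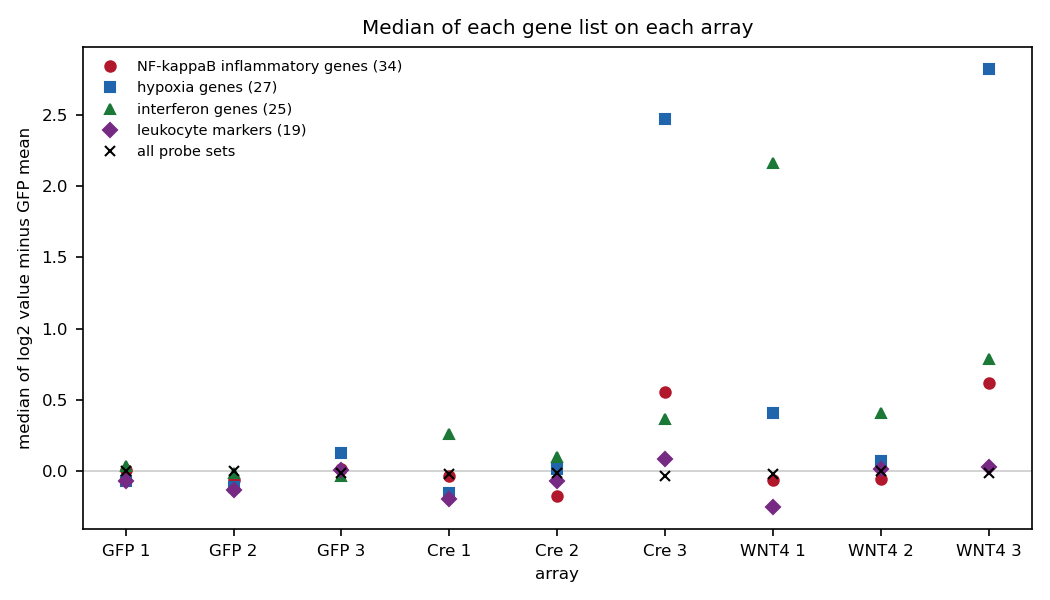
Median over each gene list of the log2 value minus the GFP mean (vertical axis) on each of the 9 arrays (horizontal axis), with a symbol for each list and a cross for all 45037 probe sets. Hypoxia genes are highest on Cre 3 (2.47) and WNT4 3 (2.82), interferon genes on WNT4 1 (2.16), and the NF-kappaB genes reach 0.56 and 0.62 on Cre 3 and WNT4 3.

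Leukocyte markers were present and bear on the members because leukocytes express many of them. Of 20 listed markers, 19 were measured, and their summed linear level ran from 3095 to 4774 on the GFP arrays, 3384 to 4391 on the Cre arrays and 1722 to 3362 on the WNT4 arrays. Array 3 lay above both other arrays in 9, 12 and 9 of the 19 in GFP, Cre and WNT4, with a median gap of 0.01, 0.19 and 0.16. The macrophage lysosomal protease Ctss read 8.94, 8.46 and 10.14 in GFP, 8.50, 9.26 and 9.73 in Cre and 8.93, 9.20 and 9.97 in WNT4, and was highest on array 3 in each group. Named after their values were seen, Csf1r, the receptor that macrophages need, read 7.01, 6.80 and 7.87, then 6.83, 7.05 and 8.44, then 6.03, 6.60 and 8.23, and Ptprc, which encodes CD45, 4.46, 4.34 and 5.49, then 4.50, 4.84 and 5.69, then 4.82, 4.84 and 5.68. Both were again highest on array 3 in each group. Lyz2, a myeloid lysozyme, was highest on Cre 2 in its group (9.57), Laptm5, the brightest marker of the list, read 10.17 to 11.00 on the GFP and Cre arrays and 6.98, 10.22 and 8.76 on WNT4 1 to 3, and Itgam stayed within 4.39 to 4.73. The part of leukocytes in the members' values was not tested.

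Markers of neutrophils, the cells that Cxcl1, Cxcl2 and Cxcl5 attract, stayed low and did not follow those genes. Of 11 listed markers, 9 were measured, 0 of them were lifted on GFP 3, Cre 3 or WNT4 3, and the summed linear level stayed at 349 to 414 on the GFP, 348 to 371 on the Cre and 321 to 381 on the WNT4 arrays. The marker with the highest mean, Elane, ranged from 5.87 to 6.29. Granulosa markers had median gaps of array 3 of 0.05 in GFP and -0.27 in both Cre and WNT4, and oocyte markers of -0.60, -0.97 and -0.92. The oocyte gaps in GFP and WNT4 followed 1 high array each: the list's median minus the GFP mean was -0.28, 0.67 and -0.40 on GFP 1 to 3 and 1.75, 0.09 and -0.04 on WNT4 1 to 3.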

How the data were processed

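RNA of 9 granulosa cell samples was hybridised to Affymetrix arrays. Groups and replicate numbers come from the labels. The authors deposited log2 values and used RMA, according to the submitters' processing notes. Its version was not given in the sources used here. Their log2 scale was read from the values. This method subtracts background, brings the arrays to one distribution and condenses the probes of each set, which already reduces differences in total signal.

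Of 45101 probe sets, 64 Affymetrix controls were left out. The platform annotation gave 1 symbol to 34945 of the 45037 tested, several to 932 and none to 9160; 34741 were updated by Entrez ID through RefSeq (GRCm38.p6). limma 3.58.1 in R 4.3.3 (lmFit, eBayes) was fitted to all 9 arrays without covariates, two-sided, with Benjamini-Hochberg adjustment over 45037 probe sets; calls had an adjusted p under 0.05. Errors are standard errors of a difference or standard deviations of a mean. The procedure was tested on simulated data. Precision is limited by having 3 arrays a group.

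The members, the gene lists and the tests were chosen with earlier results of these data known. Every array's value is printed for members with a mean of at least 6 and a range of at least 2 and for the 6 with the highest means; for pathway lists, up to 5 genes with the lowest p in each comparison with GFP; and of each marker list the gene with the highest mean, with any marker of at least 8 open to naming. Genes printed outside this rule were picked with their values in view, and the text says so for some of them. It does not say so beside the values of Il1b, Il1a, Ccl2, Bcl3, Lcn2 and Itgam or of dimmer probe sets. These also fall outside the rule. Alternatives tried were a block for the replicate number, a fit of only the compared groups, quantile normalization, centring arrays on their 75th percentile or median, a minimum mean of 6, an intensity trend, array weights, an adjusted p of 0.10, averaging the probe sets of each gene, and fits without certain arrays.

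For same-numbered arrays 1, 2 and 3, deviations from the group mean correlated across probe sets with r = 0.21, 0.24 and 0.77 between WNT4 and Cre. Between Cre and GFP the values were -0.04, -0.31 and 0.31, and between WNT4 and GFP -0.08, 0.01 and 0.35. Only WNT4 and Cre had all 3 correlations above 0.1, the mark for treating numbers as pairs. However, arrays of unlike number gave 0.32 (WNT4 1 with Cre 2) and 0.28 (WNT4 2 with Cre 1). The other unlike pairs of these groups, each with an array numbered 3, gave -0.50 to -0.43. These values do not set numbers 1 and 2 apart as pairs, and no label states a pairing.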

Additional observations from a re-analysis of the deposited data

How the results depend on the processing

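Of the 34 members, 0 were called in any of the 3 comparisons under any alternative run. The members' median difference kept within 1 SD between arrays (0.32) of its value under every alternative. That SD (0.04 in GFP, 0.39 in Cre and 0.39 in WNT4) exceeds the medians of 0.16, 0.10 and 0.09. The mark therefore allowed a change of sign and is no sign of stability. Leaving out 1 array at a time, the median ran from -0.06 to 0.38 in WNT4 against GFP and from -0.10 to 0.27 in Cre against GFP. It ran from -0.17 to 0.27 in WNT4 against Cre, so its sign was not fixed. The 7 probe sets called in WNT4 against GFP became 0 with the arrays of those groups alone, 0 without the 3 arrays numbered 3, 0 without Cre 3 and WNT4 3, 3 after quantile normalization (2 higher and 1 lower, against 6 and 1), 17 after centring on the 75th percentile, 15 with a minimum mean of 6, 1 with an intensity trend and 32 at an adjusted p under 0.10. Leaving out 1 array gave 0 to 748: 748 without WNT4 2, 9 without GFP 1 and 0 without any of the other 7; the cause was not tested. In Cre against GFP the range was 0 to 1. With the replicate number as a block, 10, 0 and 0 probe sets were called in WNT4 against GFP, Cre against GFP and WNT4 against Cre, and 0, 0 and 0 members, so the block changed no call of a member. The members' median gap of GFP 3, 0.03, was 0.09 after quantile normalization, 0.08 after centring on the median, -0.11 after centring on the 75th percentile (where all probe sets had -0.15) and 0.26 over the 17 members with a mean of at least 6, whereas those of Cre 3 and WNT4 3 stayed within 0.54 to 0.62 and 0.64 to 0.85. The count of members lifted on GFP 3 rose from 5 to 8 with any probe set counted, an alternative chosen after seeing the data. Members with a mean under 6 lie where the arrays resolve differences least.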

Other observations

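Among the listed target genes that are no members, the chemokines Cxcl3, Ccl5 and Cxcl10 were lifted on Cre 3 and WNT4 3 and not on GFP 3. They were picked after their values were seen and are given without a test. Cxcl9 and Cxcl11, of the same list, were lifted on neither and ranged by 0.74 and 0.40. Of the 47 measured targets, 6 were lifted on both Cre 3 and WNT4 3, against 276 of all 45037 probe sets. The list was written with these data known, so nothing is read from that share. Cxcl3, a neutrophil attractant close to Cxcl1 and Cxcl2, read 4.13, 4.26 and 4.56 on the GFP arrays, 4.0, 3.96 and 6.92 on the Cre arrays and 4.17, 4.11 and 7.64 on the WNT4 arrays. Ccl5, which attracts T cells and monocytes, read 5.66, 5.71 and 5.51, then 5.73, 5.32 and 8.32, then 6.06, 5.79 and 8.33. In Cxcl3 the order was WNT4 3, Cre 3, GFP 3 and then the 6 other arrays, with GFP 3 close to those 6, and in Ccl5 GFP 3 lay among the arrays numbered 1 and 2. Cxcl10, a chemokine induced by interferon as well as by NF-kappaB, read 5.11, 5.29 and 5.93 in GFP, 5.25, 4.94 and 8.22 in Cre and 7.80, 5.26 and 9.12 in WNT4, and so was high also on WNT4 1, where the interferon-response genes had their highest median (2.16). Ptgs2, the prostaglandin synthase that granulosa cells switch on before ovulation, read 4.72, 5.40 and 5.33, then 6.07, 4.64 and 7.14, then 6.99, 5.13 and 7.99, with WNT4 1 again above WNT4 2.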
